A study of Mus musculus with 12 samples.

Results

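The genes described here are those measured in RAW264.7 cells after 96 h of stimulation, in cells given the drug Mdivi-1 and in cells not given it. RAW264.7 is a mouse macrophage-like cell line established from a tumour. There were 3 libraries from cells that received 50 µM Mdivi-1 on top of LPS and mouse IFN-γ, each at 10 ng/mL, and 3 libraries from cells that received both stimuli at the same doses without Mdivi-1. Drug and stimuli were started together. All 6 came from medium with 10% FBS, no vehicle is named for the cells without Mdivi-1, and unstimulated cells were not analysed here. Of 12 libraries in the series only these 6 were used. Levels are given in TPM, each gene's part of all transcripts in a library, with gene length allowed for. Mitochondrial genes (37) and structured RNAs (6095) were left out. The median over 1766 genes of chemosensory receptors (the Olfr, Vmn1r, Vmn2r and Taar families) was taken off each library as background. Genes with a mean of at least 5 TPM over the 6 libraries were kept. That left 1528 of 49585 listed genes. The last gene inside was Gm42623, at a mean of 5.0014 TPM, and the first outside was Gm7384, at 4.9869 TPM. Without the subtraction 2266 genes would have passed.

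LPS is sensed by Toll-like receptor 4 and drives NF-kB. Together with IFN-γ it turns macrophages toward cytokine secretion, nitric oxide synthesis and glycolysis. Mdivi-1 was introduced as an inhibitor of Drp1, the GTPase that pinches mitochondria apart, and has also been described as an inhibitor of respiratory complex I. Cells meet damage from oxidants, heme or misfolded proteins with a few transcription factors: Nrf2 for antioxidant enzymes, HSF1 for chaperones, and ATF4 for amino acid synthesis in the integrated stress response.

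The 1528 members comprised 1159 protein-coding genes, 206 processed pseudogenes, 69 unprocessed pseudogenes, 44 long intergenic non-coding RNAs and smaller classes, and 324 had only a placeholder symbol. The 1113 protein-coding genes with a real symbol carried little of the total. They summed to 32801, 34293 and 30031 TPM with Mdivi-1, against 25560, 29216 and 37954 TPM without it. Mitochondrial ribosomal RNA took 61.4% to 64.2% of all TPM with Mdivi-1 and 53.1% to 74.2% without it (difference 2.14 percentage points, exact two-sided permutation test, p = 0.9, where 3 against 3 cannot go below 0.1). Library 3 without Mdivi-1 stood apart. The receptor background was 1.27 to 1.85 TPM with Mdivi-1, against 2.72, 2.11 and 0.496 TPM in libraries 1 to 3 without it. Gm10800, the most abundant member, was at 105445 to 129886 TPM with Mdivi-1, against 163945, 148066 and 50181 TPM without it. Among the 1113 protein-coding genes, 1010 (90.7%) had their highest value without Mdivi-1 in library 3. Correlations of log2 values over members were 0.932 to 0.959 among libraries with Mdivi-1 and 0.679 to 0.913 among those without.

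**Figure D1:**
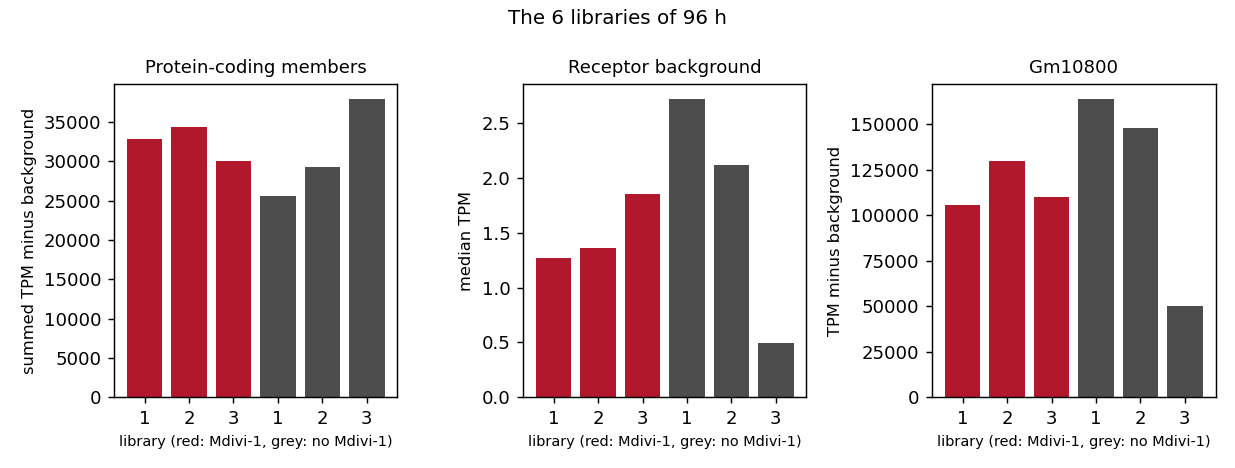
Bars give each library's summed TPM minus background of the 1113 protein-coding members with a real symbol (left), its receptor background as median TPM (middle) and Gm10800 in TPM minus background (right), with Mdivi-1 in red and without in grey. Library 3 without Mdivi-1 has the highest protein-coding sum, the lowest background and the least Gm10800.

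Hmox1, heme oxygenase 1, rose with Mdivi-1. It was the single member called by limma at an adjusted p under 0.05, so that 0.0654% of members were called higher and 0% lower. At an unadjusted p under 0.05 there were 90 genes, 49 higher and 41 lower. Counted by overlap, 84 genes (5.5% of members) were higher in every Mdivi-1 library than in any library without it, and 86 genes (5.63%) were lower in every one. The median log2 difference of all members was -0.01, and 0.05 without library 3 of the group without Mdivi-1 (no-Mdivi-1 library 3 below). With no background subtraction 96 genes were higher and 168 lower without overlap, and with equal protein-coding sums 126 were higher and 275 lower, at a median of -0.08. Median-of-ratios scaling called 17 genes higher (1.11%) and 6 lower (0.393%). Of the 84 and 86 genes, 77 and 73 kept groups that did not overlap under it. Restricting the fit to the 1113 protein-coding genes, a choice made after seeing the data, called 20 genes higher (1.8%) and 11 lower (0.988%), and 13 of these 31 were also called under median-of-ratios scaling. The median standard error was 0.27 for those 1113 genes and 0.55 for the other 415 members, mostly pseudogenes and placeholder genes. That restricted fit leaned on a spread common to all genes (80.4 prior degrees of freedom, against 4.06 with all members), and it called Rps12, which was at 22.8, 0 and 0 TPM without Mdivi-1 and overlaps. Leaving out library 3 without Mdivi-1 called 16 genes higher and 4 lower, and left 387 genes higher and 283 lower without overlap, where 3 libraries stand against 2 and separate more often. Below, "rose" is kept for Hmox1, and other genes are given by their values, their overlap and their adjusted p over all members. An adjusted p under median-of-ratios scaling is printed for some of them, and except for Hspa1b only where it was under 0.05. The genes where it was not under 0.05 included Phgdh (0.054), Hspa1b and Tubb5 (0.066 each), Lcn2 (0.068), Hist2h3c2 (0.077) and Shmt2 (0.080). They also included Tnf and S100a4 (0.080 each), Bcl2a1a (0.124), Hist1h2ai (0.126), Ccl6 (0.189) and Tuba1a (0.214). That adjusted p was under 0.05, but is not printed below, for Hspa8 (0.016), Txnip (0.021), P4hb (0.026) and Ero1l (0.031), among others. Counts of list members without overlap are to be read beside the 5.5% and 5.63% of all members.

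**Figure D2:**
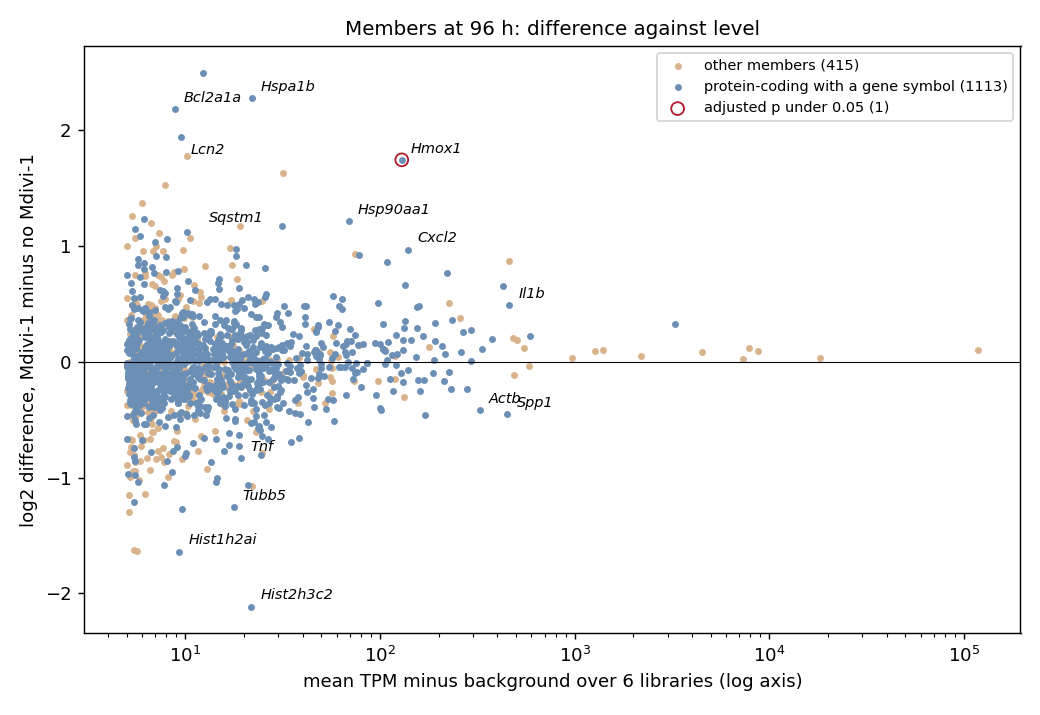
Each point is a member, with its mean TPM minus background over the 6 libraries (log axis) and its log2 difference, Mdivi-1 minus no Mdivi-1. Protein-coding genes with a real symbol (1113) are blue and the other 415 members tan. The ring marks Hmox1, the only gene with an adjusted p under 0.05, while Hspa1b and Hist2h3c2 lie at 2.28 and -2.11 without passing.

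In heme and iron handling the called gene was Hmox1 (ENSMUSG00000005413), the enzyme that breaks heme into biliverdin, iron and carbon monoxide. Hmox1 was at 192, 220 and 188 TPM with Mdivi-1, against 54.1, 59.1 and 63.3 TPM without it. The groups were far apart and each was narrow. The means were 200 ± 17 and 58.8 ± 4.6 TPM (SD, n = 3 each), a 3.40-fold ratio and a log2 difference of 1.75 ± 0.16 (SE, adjusted p = 0.0075). Without library 3 of the group without Mdivi-1 it was 1.80 (adjusted p = 0.0032). The call was lost when Mdivi-1 library 1, 2 or 3 or library 2 of the group without Mdivi-1 was left out (adjusted p = 0.0589 to 0.0947). It was also lost with all other genes rescaled to a sum of 1000000 (adjusted p = 0.71), with no filter on low genes (0.168), in limma without trend (0.0922) and with the spread shared with the 24 h libraries (0.9999). Lcn2 (ENSMUSG00000026822), lipocalin 2, which binds bacterial iron carriers, was at 14.2, 15.7 and 16.2 TPM with Mdivi-1, against 1.17, 4.79 and 5.17 TPM without it (1.94 ± 0.42, adjusted p = 0.182). Slc48a1, a transporter that moves heme out of endosomes, was at 9.58, 12.5 and 9.86 TPM, against 3.96, 5.25 and 6.63 TPM (0.90 ± 0.28, adjusted p = 0.496). Of 8 members of the list, 3 were higher without overlap, 0 lower, and 1 was called. Lcn2 passed the minimum only through the Mdivi-1 libraries, at means of 15.4 TPM with Mdivi-1 and 3.71 TPM without it. The list's median was 0.39 (0.58 without no-Mdivi-1 library 3, and 0.32 with equal protein-coding sums). The others were biliverdin reductase Blvrb, both ferritin chains Ftl1 and Fth1, and the iron chaperones Pcbp1 and Pcbp2, at -0.26 to 0.46.

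Heat shock chaperones hold and refold unfolded proteins. Hspa1b (ENSMUSG00000090877), a stress-induced Hsp70, was at 38.5, 33.2 and 36.4 TPM with Mdivi-1, against 2.48, 7.88 and 13.2 TPM without it. The means were 36.0 ± 2.67 and 7.86 ± 5.38 TPM (SD, n = 3 each), a 4.58-fold ratio with the wider spread in the libraries without Mdivi-1 (2.28 ± 0.46, adjusted p = 0.182). Leaving out their library 3 brought the adjusted p to 0.0231. With all 6 libraries it was 0.0595 with equal protein-coding sums, 0.066 under median-of-ratios scaling and 0.115 with no background subtraction. The near-identical neighbour Hspa1a was at 0.46 with groups that overlapped, and reads of this pair may be split between them. Hsp90aa1 (ENSMUSG00000021270), the inducible cytosolic Hsp90, was at 91, 91.1 and 108 TPM, against 34.6, 38 and 52.2 TPM (1.22 ± 0.20, adjusted p = 0.167, and 0.0093 under median-of-ratios scaling). Hsph1, an Hsp110 that recharges Hsp70, was at 10.3, 9.22 and 9.24 TPM, against 2.63, 4.53 and 5.84 TPM (1.04 ± 0.33, adjusted p = 0.514). Hspa8, the constitutive Hsp70, was at 160, 169 and 165 TPM, against 92.1, 92.9 and 129 TPM (0.67 ± 0.19, adjusted p = 0.448). All 4 were thus above every library without Mdivi-1. Of 14 members 4 were higher without overlap and 0 lower, 13 of 14 had a positive difference, and the median was 0.27 (0.44 without no-Mdivi-1 library 3). With no background subtraction 11 of 14 were positive, at a median of 0.20, and with equal protein-coding sums 11 of 14, at 0.19. Hsf1, which encodes the factor itself, was under the minimum. After background subtraction, with values below 0 set to 0, it was at 0 TPM in each library with Mdivi-1. Its mean without Mdivi-1 was 0.367 ± 0.635 TPM.

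The promoters of Hspa1b and Hsph1 are shown because both genes were higher in every Mdivi-1 library and HSF1 is known to drive such genes. The sequences are the 250 bases before the RefSeq start (GRCm38.p6), 5′ to 3′ on the gene's strand, with the heat shock element letters GAANNTTC or TTCNNGAA in capitals. Such a match was found in 9 of the 11 chaperone members with an entry, and in 14.5% of all 27025 genes with one. Hspd1 and Hspe1, counted among the 9, are neighbours that share 1 promoter region. The match starts 104 bases before the start in Hspa1b (chr17:34959239-34959488, minus strand) and 33 bases before it in Hsph1 (chr5:149636337-149636586, minus strand). Hspa1a, Dnaja1, Hspd1, Hspe1, Dnajb6, Cct2 and Cct5 held a match too, and their groups overlapped. Hspa8 and Hsp90aa1 had no promoter entry.
Hspa1b: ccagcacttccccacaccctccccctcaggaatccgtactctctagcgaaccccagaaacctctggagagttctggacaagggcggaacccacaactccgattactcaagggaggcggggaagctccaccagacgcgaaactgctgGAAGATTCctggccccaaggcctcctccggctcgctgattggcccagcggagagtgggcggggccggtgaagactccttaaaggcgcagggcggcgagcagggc
Hsph1: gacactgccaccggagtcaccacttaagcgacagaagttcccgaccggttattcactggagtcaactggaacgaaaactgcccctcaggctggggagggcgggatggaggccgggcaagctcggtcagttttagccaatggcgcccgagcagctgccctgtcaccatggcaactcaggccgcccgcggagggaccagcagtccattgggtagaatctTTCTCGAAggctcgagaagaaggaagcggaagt

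Sqstm1 (ENSMUSG00000015837), the p62 receptor that links ubiquitinated cargo to autophagosomes and also frees Nrf2 from its inhibitor Keap1, was at 46.5, 44.6 and 39.7 TPM with Mdivi-1, against 15.8, 20.2 and 20.5 TPM without it. The lowest value with Mdivi-1 lay well above the highest without it (1.17 ± 0.19, adjusted p = 0.167, and 0.0081 under median-of-ratios scaling). Among 3 members of the autophagy list, Bnip3, a receptor for mitochondria, was at 12.3, 15.1 and 14.5 TPM, against 12.1, 8.35 and 12.2 TPM (0.35 ± 0.23, adjusted p = 0.999). Of 8 Nrf2 targets and regulators that were members, 5 were higher without overlap, 0 were lower, and the median was 0.50 (0.69 without no-Mdivi-1 library 3). With equal protein-coding sums 7 of 8 were positive, at a median of 0.42. The 5 were Phgdh, Txnrd1, Gsr, Prdx1 and Esd, of which Phgdh also serves serine synthesis and is described with it. Txnrd1, thioredoxin reductase, was at 20, 16.5 and 18.1 TPM, against 8.65, 12.4 and 12.2 TPM (0.68 ± 0.22, adjusted p = 0.514). Prdx1, a peroxide-removing peroxiredoxin, was at 70.3, 83.5 and 72.5 TPM, against 42.6, 50.0 and 63.2 TPM (0.54 ± 0.20, adjusted p = 0.608, and 0.0225 under median-of-ratios scaling). Gsr, glutathione reductase, was at 10.1, 9.37 and 8.75 TPM, against 4.51, 5.08 and 8.30 TPM, so that its groups barely separated (0.62 ± 0.29, adjusted p = 0.870). The remaining 21 of 29 genes of the list were under the minimum, among them Nfe2l2, which encodes Nrf2, at 2.33 ± 0.592 and 1.84 ± 0.522 TPM (SD, n = 3 each).

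Of the serine and one-carbon enzymes, Phgdh and Shmt2 had groups that did not overlap, while Psat1 and Mthfd2 were under the minimum. Phgdh (ENSMUSG00000053398), which opens serine synthesis from glycolysis, was at 13.4, 15.9 and 13.5 TPM with Mdivi-1, against 5.29, 7.42 and 5.49 TPM without it (1.12 ± 0.23, adjusted p = 0.182). Shmt2, which moves a carbon from serine to folate in mitochondria, was at 7.85, 7.74 and 8.08 TPM, against 1.92, 3.12 and 4.36 TPM (1.15 ± 0.39, adjusted p = 0.566). These enzymes are textbook ATF4 targets, and Atf4 itself was at 17.6, 18.4 and 12.8 TPM, against 10.2, 13.1 and 17.9 TPM, with groups that overlapped (0.24 ± 0.26, adjusted p = 0.999). Of 10 members of the integrated stress response list 5 were higher without overlap and 1 lower. The list's median was 0.39 (0.49 without no-Mdivi-1 library 3, and 0.31 with equal protein-coding sums). Sars and Nars, which charge tRNAs with serine and asparagine, stood at 0.70 and 0.56, and the stress-induced factor Atf3 at 0.52. The lower one was Nupr1, a small stress-induced chromatin protein, at 47.3, 47.2 and 47.3 TPM, against 56.0, 65.9 and 84.5 TPM (-0.51 ± 0.19, adjusted p = 0.664, and 0.0307 under median-of-ratios scaling). Ddit3, Cebpb, Gars and Atf4 overlapped, at -0.10, -0.29, 0.26 and 0.24. The remaining 23 of 33 genes of the list were under the minimum. In the endoplasmic reticulum, Ero1l, the oxidase that drives disulfide formation, was at 26.1, 23.8 and 22.7 TPM, against 12.4, 11.6 and 13.2 TPM (0.92 ± 0.18, adjusted p = 0.182). P4hb, the protein disulfide isomerase that it reoxidizes, was at 0.48. The other 10 of 12 members of that list overlapped. Its median was 0.12 (0.24 without no-Mdivi-1 library 3, and 0.04 with equal protein-coding sums).

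The promoter of Phgdh is shown because the gene stands in both the Nrf2 and the ATF4 list. The 250 bases (RefSeq, GRCm38.p6, chr3:98339970-98340219, minus strand) hold 1 match to the antioxidant response element letters TGACNNNGC, on the opposite strand, in capitals and starting 53 bases before the start. They hold no match to the ATF4 letters TGATGNAA. Of 6 Nrf2-list members with an entry 3 held the antioxidant letters (Phgdh, Txnrd1 and Prdx1), as did 11.5% of all genes. ATF4 letters were in 3 of 9 integrated stress response members with an entry (Atf3, Gars and Nupr1) and in 3.91% of all genes.
Phgdh: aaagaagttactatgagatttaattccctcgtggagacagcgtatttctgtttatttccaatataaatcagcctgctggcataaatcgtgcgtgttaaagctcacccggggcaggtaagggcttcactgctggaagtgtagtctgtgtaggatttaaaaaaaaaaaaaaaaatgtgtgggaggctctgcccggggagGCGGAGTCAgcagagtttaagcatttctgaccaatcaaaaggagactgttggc

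Inflammatory genes stood on both sides. Of 6 interleukin-1 and inflammasome members 3 were higher without overlap and 0 lower. The list's median was 0.21 (0.40 without no-Mdivi-1 library 3, and 0.13 with equal protein-coding sums). Il1a, an alarm cytokine, was at 520, 567 and 482 TPM with Mdivi-1, against 278, 320 and 409 TPM without Mdivi-1 (0.65 ± 0.20, adjusted p = 0.514, and 0.0093 under median-of-ratios scaling). Il1b, secreted after caspase-1 cleavage, was at 527, 568 and 515 TPM, against 325, 355 and 481 TPM (0.49 ± 0.20, adjusted p = 0.764, and 0.0253 under median-of-ratios scaling). Txnip, a thioredoxin-binding protein that can engage NLRP3, was at 28.6, 26.2 and 24.1 TPM, against 11.9, 13.0 and 18.6 TPM (0.84 ± 0.22, adjusted p = 0.337). The receptor antagonist Il1rn, Casp1 and Gsdmd, the other 3 members of that list, overlapped at -0.29 to -0.08. Tnf, the early macrophage cytokine, stood on the opposite side at 16.2, 14 and 10.5 TPM, against 22.2, 21 and 31.9 TPM (-0.83 ± 0.25, adjusted p = 0.496). Il6 was under the minimum over the 6 libraries, at 6.76 ± 0.938 TPM with Mdivi-1 and 1.65 ± 0.834 TPM without it (SD, n = 3 each). Lif, a cytokine of the interleukin-6 family, was at 10.0, 9.53 and 8.59 TPM, against 2.86, 4.72 and 6.52 TPM (0.91 ± 0.33, adjusted p = 0.597). Ptgs2, the inducible prostaglandin synthase, was at 196, 172 and 170 TPM, against 116, 118 and 152 TPM (0.48 ± 0.18, adjusted p = 0.652).

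Among 12 chemokines, 1 was higher without overlap (8.33%, against 5.5% of all members) and 1 lower (8.33%, against 5.63%). The median was -0.0041 (0.27 without no-Mdivi-1 library 3, and -0.09 with equal protein-coding sums). Cxcl2 (ENSMUSG00000058427), a neutrophil attractant, was at 202, 192 and 161 TPM with Mdivi-1, against 86.0, 89.0 and 106 TPM without it (0.97 ± 0.18, adjusted p = 0.182, and 0.0093 under median-of-ratios scaling). Ccl6, a chemokine of myeloid cells in mice, was at 4.20, 7.49 and 2.95 TPM, against 11.3, 11.1 and 9.76 TPM (-1.07 ± 0.33, adjusted p = 0.514). The interferon-induced chemokine Cxcl10 was at 27.9, 19.2 and 18.4 TPM, against 11.8, 26.3 and 41.9 TPM, which overlap fully (-0.14 ± 0.42, adjusted p = 0.999), and its sign turned to 0.27 without library 3 of the group without Mdivi-1. Saa3, an acute phase protein of macrophages, was at 101, 113 and 92.2 TPM, against 44.6, 51.3 and 65.6 TPM (0.92 ± 0.20, adjusted p = 0.182, and 0.0070 under median-of-ratios scaling). Cfp, properdin, which stabilizes the alternative complement pathway, was at 3.76, 4.50 and 1.78 TPM, against 6.51, 5.08 and 11.3 TPM (-0.98 ± 0.46, adjusted p = 0.870). Socs3, the feedback inhibitor of cytokine receptors, was at 24.4, 23.9 and 17.5 TPM, against 27.0, 29.2 and 43.8 TPM (-0.56 ± 0.24, adjusted p = 0.801). The other 10 of 11 members of the NF-kB list overlapped.

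The promoter of Cxcl2 is shown because the gene was the only chemokine higher in every library. Its 250 bases (RefSeq, GRCm38.p6, chr5:90903649-90903898, plus strand) hold 2 matches to the NF-kB site, in capitals, starting 97 and 78 bases before the start. A match stood in 2 of 6 chemokine members with an entry and in 1.65% of all genes with one. The other chemokine was Ccl9, whose groups overlapped (-0.23 ± 0.20, adjusted p = 0.999). The same windows of Il1a, Il1b, Tnf, Saa3 and Ptgs2 held none, which says only that these letters are not there.
Cxcl2: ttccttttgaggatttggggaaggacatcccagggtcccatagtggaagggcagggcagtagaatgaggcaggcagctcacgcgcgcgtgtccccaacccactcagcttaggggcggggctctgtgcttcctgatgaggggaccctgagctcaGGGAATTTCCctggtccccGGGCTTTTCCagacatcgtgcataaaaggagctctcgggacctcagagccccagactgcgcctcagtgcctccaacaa

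Of 17 interferon-induced members 2 were lower without overlap (11.8%, against 5.63% of all members) and 0 were higher. The median was -0.07 (-0.02 without no-Mdivi-1 library 3, and -0.15 with equal protein-coding sums). Ifit2, which binds viral RNA, was at 11.7, 10.4 and 11.7 TPM with Mdivi-1, against 16, 18.7 and 26 TPM without it (-0.77 ± 0.23, adjusted p = 0.496). Phf11b was at 18.1, 20.1 and 19.2 TPM, against 27.6, 31.7 and 31.6 TPM (-0.64 ± 0.17, adjusted p = 0.402). All 4 Ifit members, grouped after their values were seen, were negative, with Ifit2 and Ifit3b (-0.96) lower without overlap and Ifit1 and Ifit3 overlapping. Nos2, the inducible nitric oxide synthase, was at 44.2, 51.9 and 38.5 TPM, against 49.0, 56.1 and 75.6 TPM (-0.40 ± 0.22, adjusted p = 0.990), and Acod1, which makes itaconate, was at 38.7, 44.0 and 34.9 TPM, against 39.1, 50.1 and 69.4 TPM (-0.39 ± 0.24, adjusted p = 0.999). In both genes only library 2 with Mdivi-1 exceeded library 1 without it, and every other pair of libraries was lower with Mdivi-1. Oaz1, the antizyme that degrades ornithine decarboxylase, was at 11.4, 11.8 and 9.43 TPM, against 15.7, 18.6 and 19.2 TPM (-0.66 ± 0.20, adjusted p = 0.496). The 10 antigen presentation members, 6 costimulation and checkpoint members and 4 metallothionein and zinc members all overlapped. Their medians were 0.17, 0.13 and -0.09, and 0.37, 0.40 and 0.09 without no-Mdivi-1 library 3. With equal protein-coding sums these medians were 0.09, 0.06 and -0.17.

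Tubulins and some histones were lower. Tubb5, a beta-tubulin of dividing cells, was at 11.9, 11.9 and 6.52 TPM with Mdivi-1, against 18.2, 26.9 and 30.9 TPM without it (-1.26 ± 0.30, adjusted p = 0.243). Tubb6 was at 7.74, 10.4 and 8.91 TPM, against 15.2, 20.4 and 23.4 TPM (-1.04 ± 0.23, adjusted p = 0.216, and 0.024 under median-of-ratios scaling). Tuba1a was at 6.85, 9.45 and 11.8 TPM, against 22.1, 21.7 and 15.3 TPM (-1.01 ± 0.26, adjusted p = 0.335). Tuba1b was at 15.8, 22.4 and 14.6 TPM, against 25.3, 30.5 and 38.4 TPM (-0.80 ± 0.24, adjusted p = 0.496). Of the 5 tubulin members, a family gathered after its values were seen, 4 were thus lower without overlap, and all 5 stayed negative under each scaling tried and without library 3 of the group without Mdivi-1. Tubulin genes resemble each other in sequence, so reads may be shared among them. Of 25 cytoskeleton members 5 were lower without overlap and 0 higher. They were these 4 tubulins and Actb, beta-actin, at 282, 298 and 252 TPM, against 309, 356 and 460 TPM (-0.42 ± 0.20, adjusted p = 0.901). The list's median was -0.16, 0.02 without library 3 of the group without Mdivi-1, and -0.24 with equal protein-coding sums.

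Hist2h3c2 (ENSMUSG00000081058), a histone H3 gene, had the lowest difference among genes with a real symbol. It was at 9.97, 9.54 and 3.35 TPM with Mdivi-1, against 19.7, 36.7 and 51.4 TPM without it (-2.11 ± 0.45, adjusted p = 0.182). Hist1h2ai, a histone H2A gene, was at 6.37, 2.68 and 3.21 TPM, against 15.8, 17.6 and 10.0 TPM (-1.64 ± 0.35, adjusted p = 0.182). The clustered histones did not all share a direction, though most were negative. Of 13 that were members, a family again gathered after the fact, 3 were lower without overlap, 10 overlapped, and the range was -2.11 to 0.21. Of the 13, 10 were negative and 3 positive, at a median of -0.30. Without no-Mdivi-1 library 3 the median was -0.21 with 8 negative. Many of them are near-identical copies, so a value for 1 copy is uncertain. Cetn3, a centriole protein, was at 6.38, 2.77 and 0.807 TPM, against 7.49, 6.94 and 8.25 TPM (-1.21 ± 0.56, adjusted p = 0.867). Cdkn1a (ENSMUSG00000023067), the p21 inhibitor of cyclin-dependent kinases, stood higher at 22.3, 28.1 and 22.6 TPM, against 11.3, 10.5 and 13.9 TPM (0.98 ± 0.21, adjusted p = 0.182, and 0.0221 under median-of-ratios scaling). The cell cycle list itself had only 2 of 33 genes at the minimum, Tubb5 and Hmgb2, a chromatin protein at -0.38, and both were lower. The other 31 were too low to be described.

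S100a4, a calcium-binding protein of motile cells, was at 12.7, 13.9 and 11.2 TPM with Mdivi-1, against 16.4, 30.3 and 40.7 TPM without it (-1.06 ± 0.32, adjusted p = 0.496). The groups separate, and the library 3 without Mdivi-1 is the highest. Of 6 S100 members, gathered after their values were seen, 4 were lower without overlap. All 6 were negative, and 5 of 6 without library 3 of the group without Mdivi-1. Others among the 15 lower genes with the largest differences were Ckb, brain creatine kinase (-1.04), Mycn, a Myc transcription factor (-0.95), Dek, a chromatin protein (-0.86), Cggbp1, which binds CGG repeats (-0.86), and Spink5, a serine protease inhibitor gene (-0.86, adjusted p = 0.290, and 0.0307 under median-of-ratios scaling). Mmp9, a gelatinase, was on the higher side at 12.5, 13.2 and 7.80 TPM, against 3.18, 4.46 and 7.09 TPM (1.06 ± 0.34, adjusted p = 0.514). Spp1, osteopontin, was at 384, 370 and 388 TPM, against 474, 500 and 594 TPM (-0.45 ± 0.18, adjusted p = 0.726).

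**Figure D3:**
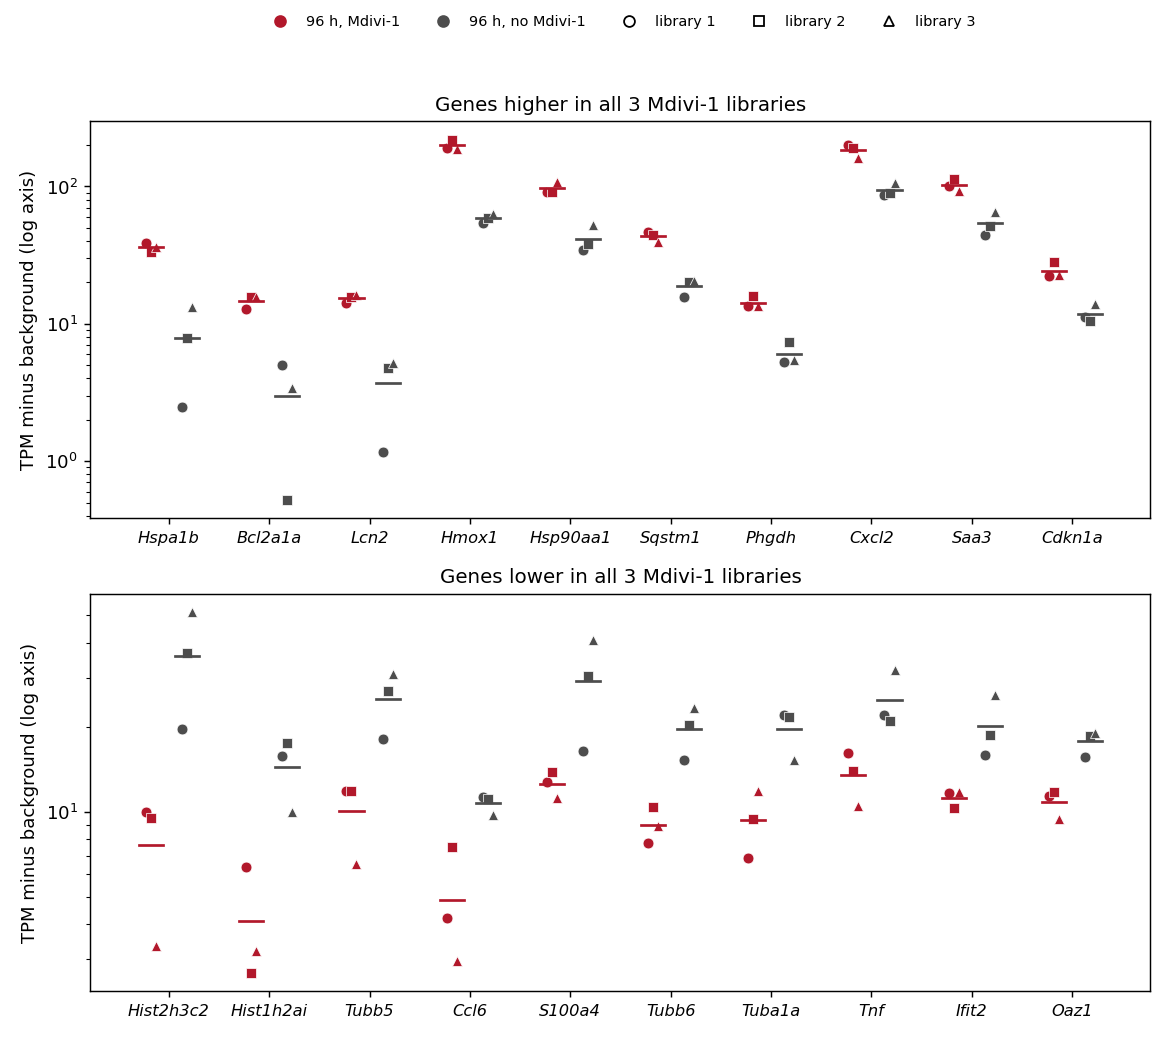
TPM minus background (log axis) of 10 genes higher (top) and 10 lower (bottom) in all 3 Mdivi-1 libraries, with Mdivi-1 in red at the left of each gene and without it in grey. Markers give libraries 1 to 3 and lines the group means. Hmox1 lies at 188 to 220 TPM, against 54.1 to 63.3 TPM, and Hspa1b at 33.2 to 38.5 TPM, against 2.48 to 13.2 TPM.

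Genes of cell survival stood on both sides. Bcl2a1a, an inhibitor of apoptosis in blood cells, was at 12.7, 15.7 and 15.6 TPM with Mdivi-1, against 4.99, 0.518 and 3.44 TPM without it (2.19 ± 0.50, adjusted p = 0.234). Bcl2a1b was at 28.8, 33.7 and 34.3 TPM, against 15.7, 13.2 and 27.7 TPM (0.81 ± 0.28, adjusted p = 0.574). Bcl2a1d overlapped at 35.7, 16.3 and 22.4 TPM, against 24.9, 32.8 and 31.5 TPM. The 3 are near-identical copies, and how reads were divided among them is not given in the sources used here. Bax, which permeabilizes mitochondria, was at 7.04, 7.51 and 8.04 TPM, against 2.21, 5.54 and 6.32 TPM (0.67 ± 0.39, adjusted p = 0.999). Cflar, which restrains caspase-8, was lower at 7.77, 7.26 and 6.93 TPM, against 8.71, 8.57 and 11.1 TPM (-0.32 ± 0.23, adjusted p = 0.999). Among 5 immediate early members Jun, an AP-1 subunit, was at 8.91, 7.81 and 7.72 TPM, against 3.83, 3.83 and 4.55 TPM (0.85 ± 0.30, adjusted p = 0.580).

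None of 18 genes of mitochondrial dynamics reached the minimum. Dnm1l, which encodes Drp1, was at 1.27 ± 0.491 TPM with Mdivi-1 and 0.926 ± 1.22 TPM without it (SD, n = 3 each), too low to compare. Of 21 respiratory chain members encoded in the nucleus 2 were lower without overlap and 0 higher, where 5.63% of all members were lower and 5.5% higher. The median was 0.01 with 11 of 21 positive, and 0.15 with 16 of 21 positive without no-Mdivi-1 library 3. With equal protein-coding sums it was -0.06 with 8 of 21 positive. The 2 lower ones were Cox7b, of complex IV, at 16.9, 19.3 and 19.7 TPM, against 26.5, 24.1 and 35 TPM (-0.57 ± 0.20, adjusted p = 0.597), and Atp5l, of ATP synthase, at -0.35. Complex I subunits, gathered over all members after values were seen, overlapped in 10 of 10 cases, at -0.21 to 0.51. Of these 9 were positive, at a median of 0.29 (0.44 without no-Mdivi-1 library 3), and 8 with no background subtraction or with equal protein-coding sums. All 4 members of the citric acid cycle overlapped.

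Slc2a1, the glucose transporter GLUT1, was at 52.0, 51.1 and 43.0 TPM with Mdivi-1, against 35.4, 30.6 and 37.6 TPM without it (0.49 ± 0.18, adjusted p = 0.608). Pkm, pyruvate kinase, was at 51.8, 51.2 and 47.5 TPM, against 52.5, 62.7 and 77.3 TPM (-0.33 ± 0.19, adjusted p = 0.999). Of 17 glycolysis and hypoxia members 3 were higher and 1 lower without overlap, and the median was 0.03 with 9 positive. It was 0.21 with 12 positive without no-Mdivi-1 library 3, and -0.05 with 6 positive with equal protein-coding sums. In lipid metabolism, Plin2, the coat of lipid droplets, was at 8.21, 7.69 and 8.06 TPM, against 3.92, 3.16 and 5.62 TPM (0.81 ± 0.32, adjusted p = 0.740). Fabp5, a fatty acid carrier, was at 13.6, 18.1 and 12.4 TPM, against 20.4, 22.4 and 26.5 TPM (-0.63 ± 0.22, adjusted p = 0.574), and the desaturase Scd2 stood at -0.53. Of 9 lipid and sterol members 1 was higher and 2 lower without overlap. Their median was -0.33 (-0.17 without no-Mdivi-1 library 3, and -0.41 with equal protein-coding sums).

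Ubb, a polyubiquitin gene, was at 143, 161 and 146 TPM with Mdivi-1, against 108, 110 and 135 TPM without it (0.35 ± 0.17, adjusted p = 0.901). Of 20 members of the proteasome and ubiquitin list 17 overlapped, and the median was 0.03 (0.23, with 18 of 20 positive, without no-Mdivi-1 library 3). With equal protein-coding sums it was -0.04 with 7 of 20 positive. All 43 cytosolic ribosomal proteins listed were members. Of these, 4 (9.3%, against 5.5% of all members) were higher without overlap, led by Rps19 at 0.72, and 0 were lower. The list's median was 0.11 with 31 of 43 positive. It was 0.30 with 41 of 43 positive without no-Mdivi-1 library 3, and 0.03 with 25 positive with equal protein-coding sums. Of 16 lysosome members 1 (6.25%) was higher (Ctsl, cathepsin L, 0.29) and 3 (18.8%) lower (Lipa, Psap and Mitf, -0.42 to -0.36). Over all members 5.5% were higher and 5.63% lower. The lysosome list's median was 0.14 with 10 of 16 positive. It was 0.33 with 12 positive without no-Mdivi-1 library 3, and 0.06 with 9 positive with equal protein-coding sums.

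Among members that encode no protein, the nuclear RNAs Malat1 and Neat1 were both higher. Malat1, found in nuclear speckles, was at 117, 79.1 and 96.3 TPM with Mdivi-1, against 35.1, 50.3 and 69.6 TPM without it (0.94 ± 0.27, adjusted p = 0.492). Neat1, the scaffold of paraspeckles, was at 28.2, 17.6 and 22.8 TPM, against 8.27, 10.1 and 15.3 TPM (0.98 ± 0.28, adjusted p = 0.458). In both, library 3 without Mdivi-1 came closest to the Mdivi-1 group.

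**Figure D4:**
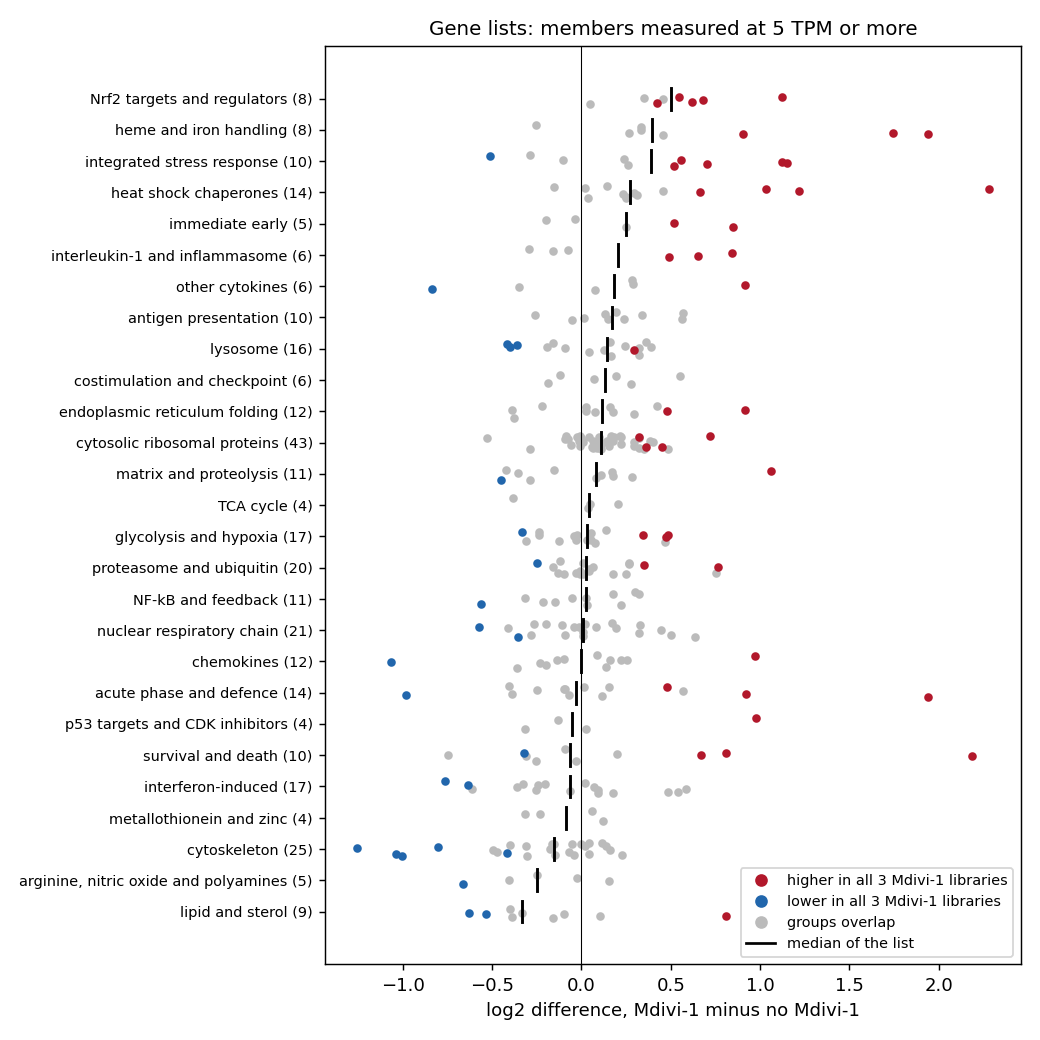
Each point is a member of a gene list, placed by its log2 difference, Mdivi-1 minus no Mdivi-1, and coloured by whether it was higher in all 3 Mdivi-1 libraries (red), lower in all 3 (blue) or overlapping (grey). Black bars give list medians and numbers in brackets the members, for lists of at least 4. The Nrf2, heme and iron and integrated stress response lists have the highest medians (0.50, 0.39 and 0.39), and the lipid and sterol list the lowest (-0.33) with all 6 libraries in.

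The macrophage label was checked against markers. Of 15 macrophage markers 8 were members, and all 8 overlapped between the groups. Lyz2, lysozyme, was at 156 to 197 TPM with Mdivi-1 and 160 to 248 TPM without it, and the marker list summed to 512 to 588 TPM and 453 to 699 TPM. Csf1r and Adgre1, the M-CSF receptor and F4/80, were under 5 TPM in each library. None of 48 fibroblast, lymphocyte, neutrophil, epithelial, endothelial and erythroid markers reached 5 TPM in any library, and each of these lists summed to at most 1.55 TPM per library. In bulk RNA, fewer cells of a type and less RNA per cell cannot be told apart.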

How the data were processed

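Transcripts were measured as TPM, which the authors deposited in 1 table of 49585 genes. Per the labels' protocols, RNA was taken in TRIZOL, rRNA was depleted from 100 ng of total RNA, and directional libraries were made. Aligner, counting program and annotation: not given in the sources used here. In the submitters' processing notes the build is hg19, a human one, while gene IDs follow mouse Ensembl. Of these, 49326 (99.5%) matched GENCODE M21, which supplied gene types. Each column sums to 1000000, so depth is unknown. Whether libraries of a group came from separate cultures is not labelled, and p-values describe only the spread among these samples.

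Receptor background was subtracted and values below 0 were set to 0. Members had a mean of at least 5 TPM over the 6 libraries, so a gene could pass through 1 group alone. Lcn2, Shmt2, Hsph1, Lif, Jun, Plin2, Bax, Mmp9 and Bcl2a1a were among those with means under 5 TPM without Mdivi-1. Cetn3, Cfp, Dek, Ckb, Ifit3b, Ccl6 and Hist1h2ai were among those with means under 5 TPM with it. Such genes are held in the counts of genes without overlap. log2(TPM + 1) of the 6 libraries was fitted in R 4.3.3 by limma-trend (version 3.58.1), with Benjamini-Hochberg adjustment over the 1528 members and calls at an adjusted p under 0.05. A ± after a log2 difference is its standard error, with n = 3 libraries per group. This scale understates changes of low genes. Differences between groups that do not overlap are counts with no test. RNA composition was tested with an exact permutation test. Tables and plots used Python 3.11.15 with pandas 2.3.3, numpy 2.4.6, matplotlib 3.10.9 and scipy 1.17.1. The fit was also run on simulated data with independent noise in each gene. That simulation held no shift shared by the genes of a library, so it does not measure error rates here.

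The members and gene lists were chosen with earlier results of these data known. Named genes were the called gene, the 15 higher and 15 lower with the largest differences among those without overlap and without placeholder symbols, list members without overlap (up to 6 a direction), and 11 fixed genes. That gave 84 genes at or above the minimum, and 65 of them had a RefSeq promoter entry (GRCm38.p6). Motifs were searched on both strands. E-box letters (CACGTG) were in 6.86% of genes with an entry and are not described further. Families of related genes, H3f3b, Rps12, Hspa1a, Hspd1, Hspe1 and other genes named only by their place in a list were chosen after their values were seen. Alternatives were other scalings, filters, pseudocounts, models and left-out libraries. Some genes are not reported here.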

Additional observations from a re-analysis of the deposited data

How the results depend on the processing

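Hmox1 had a positive log2 difference under each alternative tried. Its adjusted p was 0.71 with values rescaled to a sum of 1000000, 0.168 with no filter, 0.0922 in limma without trend and 0.9999 with the spread shared with the 24 h libraries, where 0 genes were called each time. Leaving out 1 library in turn gave 0 to 20 called genes and adjusted p-values of 0.0032 to 0.0947 for Hmox1. It stayed called only without library 1 or library 3 of the group without Mdivi-1. A minimum of 20 TPM called 4 genes (Hmox1, Hsp90aa1, Sqstm1 and Cxcl2), median-of-ratios scaling 23, scaling to equal protein-coding sums 36 (17 higher, 19 lower), and protein-coding members alone 31. With equal protein-coding sums, leaving out Mdivi-1 library 1, 2 or 3 called 3, 3 and 7 genes, and leaving out library 1, 2 or 3 without Mdivi-1 called 12, 0 and 31.

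The labels state no pairing of libraries by replicate number. Departures of same-numbered libraries from their group means correlated at -0.374, -0.070 and -0.480, and those of differently numbered ones at -0.233 to 0.454. As departures within a group of 3 sum to 0, these values cannot show whether same-numbered libraries shared a culture. The replicate block called 4 genes, the block with rescaling to a sum of 1000000 called 0, and the block with scaling to equal protein-coding sums called 0.

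Genes higher and lower without overlap numbered 84 and 86. They numbered 96 and 168 with no background subtraction, 14 and 21 after rescaling to a sum of 1000000, 199 and 154 under median-of-ratios scaling, and 126 and 275 with equal protein-coding sums. A minimum of 1 TPM gave 196 and 209, a minimum of 20 TPM 34 and 27, and no filter 500 and 471. Leaving out 1 library gave 92 to 387 higher and 110 to 286 lower, where 3 against 2 separate more often. Shifts over 1.5 times came without Mdivi-1 library 2 (149 lower) and 3 (142 higher), and without library 1 (286 lower) and library 3 (387 higher, 283 lower) of the group without Mdivi-1. The cause of these shifts was not tested.

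Of 2222 values of the 84 named genes under alternatives 2 changed sign, both of Cxcl10, which ranged over -0.61 to 0.27 with 1 library left out and reached 0.037 with equal protein-coding sums and no library 3 of the group without Mdivi-1. Another 117 values passed the threshold and 11, all of Hmox1, lost it. The structured RNA share differed by -0.119 percentage points and by 0.0020 when defined by symbol alone. Depth is unknown from TPM and limits low genes most.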

Other observations

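Several members that are no named protein-coding genes separated the groups. Gm26825, a long intergenic non-coding RNA, was at 578, 596 and 593 TPM with Mdivi-1, against 243, 324 and 422 TPM without it (0.87 ± 0.23). Gm18445, an unprocessed pseudogene, was at 13.2, 13.8 and 14 TPM, against 24.3, 28.5 and 38.5 TPM (-1.07 ± 0.22). Both were called under median-of-ratios scaling and not with the values as deposited after background subtraction. Gm10260, annotated as protein-coding, was at 65.9, 27.7 and 53.05 TPM, against 18.4, 12.9 and 11.9 TPM (1.63 ± 0.33). The replacement histone gene H3f3b was at 136, 150 and 136 TPM, against 62.6, 72.9 and 98.7 TPM (0.86 ± 0.20), on the opposite side from the clustered histones Hist2h3c2 and Hist1h2ai. The functions of the placeholder genes are not given in the files.

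Members of the Ifi200 family, interferon-induced DNA and RNA sensors and their relatives, were lower without overlap in 3 of 5 cases. The other 2 overlapped, Ifi202b at 0.26 and Ifi209 at -0.31. Ifi204 was at 21.6, 21.4 and 20.4 TPM with Mdivi-1, against 26.9, 29.1 and 37 TPM without it (-0.52 ± 0.19, adjusted p = 0.608). Of 3 Slfn genes, Slfn2 and Slfn5 were lower without overlap, at -0.26 and -0.46, and Slfn4 overlapped at 0.28. These families were gathered after their values were seen, and the values are descriptions.

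Library 3 without Mdivi-1 often held the highest of the 3 values without Mdivi-1. It did so in 66 of the 84 genes that were higher with Mdivi-1 and in 70 of the 86 that were lower. Among the 1113 protein-coding members with a real symbol it did so in 1010 (90.7%), so such counts are not particular to the 84 and 86 genes. In genes that were lower, the lowest value without Mdivi-1 decides overlap, so the count of 70 does not show what library 3 contributed. The part of library 3 in the 84 and 86 genes was not tested beyond the values given for leaving it out.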
